A study of Homo sapiens with 6 samples.

Results

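E-cadherin, the catenins that bind it and a set of epithelial junction genes were followed by RNA-seq in LNCaP, a long-established line of human prostate cancer cells with luminal epithelial character. The 9 genes were taken by symbol from a table of 17297 gene symbols, and all 9 were present. They are CDH1 (E-cadherin), CTNNA1 (α-catenin), CTNNB1 (β-catenin), CTNND1 (p120-catenin), JUP (plakoglobin), TJP1 (ZO-1), OCLN (occludin), CLDN7 (claudin-7) and EPCAM (epithelial cell adhesion molecule). One stable line carried the empty retroviral vector pBabe (pBabe-vector) and the other carried GNA13, which encodes the G protein subunit Gα13, in the same vector (pBabe-GNA13). The labels give the genotype of the vector line as wild type and that of the other as overexpressing GNA13. Each line was grown for 48 h without a further treatment and was sampled as 3 biological replicates. As 1 line stands for each condition, a difference between the lines cannot be told apart from a difference caused by GNA13, and the p-values measure the spread between cultures of these lines.

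At the adherens junction, E-cadherin binds E-cadherin on the neighboring cell. Its cytoplasmic tail binds p120-catenin near the membrane and β-catenin or plakoglobin further along, and α-catenin links this complex to actin. Tight junctions lie closer to the apical surface, where claudins and occludin cross the membrane and ZO-1 holds them to the cytoskeleton. Gα12 and Gα13 can bind the cytoplasmic tails of cadherins, and β-catenin that is free of cadherin can act in the nucleus with TCF and LEF factors.

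Library totals ran from 33002160 to 40628970 counts, and values are given as CPM, read counts scaled to the library size after TMM adjustment. The headings of the table tie 1 library of each line to the tag std (replicate 1 for pBabe-vector, the std library for pBabe-GNA13) and the others to replicates 2 and 3. The heading of the std library of pBabe-GNA13 also carries the number 2, which repeats that of replicate 2, so that pairing it with the std library of pBabe-vector rests on the shared tag and is an assumption, whereas the pairs of replicates 2 and 3 share their numbers. This gives 3 pairs across the lines. Within each pair the libraries deviated from their group means together, so each difference was fitted both without the pair and with the pair as a block. GNA13 was at 820, 886 and 747 CPM in pBabe-GNA13 (std, replicates 2 and 3) and at 76.7, 69.4 and 65.4 CPM in pBabe-vector. Its log2 fold change was 3.54, with an edgeR adjusted p of 9.1e-05. All 9 luminal prostate markers were expressed, with summed levels of 6424 to 9175 CPM in pBabe-GNA13 and 5546 to 8228 CPM in pBabe-vector. With the block 4 of the 9 were higher at an edgeR adjusted p under 0.05 and none lower, beside 9.32% and 10.4% of all genes. The 4 were KLK2, KRT8, KRT18 and KLK3, with log2 fold changes of 0.93, 0.33, 0.25 and 0.21.

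None of the 9 genes passed an adjusted p of 0.05 in edgeR's quasi-likelihood test without the block, a test that called 0.139% of all genes, and 1 of the 9 (EPCAM) had an unadjusted p under 0.05. With the pairs as a block 4 of the 9 passed, beside 19.7% of all genes and 26.3% of genes with a mean of at least 10 CPM, to which all 9 belong. The 1 called higher and the 3 called lower stood beside 9.32% and 10.4% of all genes. EPCAM rose by a log2 fold change of 0.37, whereas CLDN7, TJP1 and OCLN fell by 0.21, 0.20 and 0.17 on the log2 scale. CDH1 and the 4 catenin family genes did not pass either test, and their differences with the block lay between −0.06 and 0.07. The median difference of the 9 genes was −0.04 with the block, compared with −0.0026 over all genes. Without the std pair, whose pairing is assumed, EPCAM, CLDN7 and OCLN were called and TJP1 was not. Relative to the median of each chromosome 2 of the 9 were called, EPCAM and CLDN7, beside 13.9% of all genes. In 8 of the 9 genes the 3 pairs had the same direction, 3 higher and 5 lower, beside 48.0% of all genes. That share covers genes of any level and was not formed for genes of at least 10 CPM. The 8 include pair differences as small as −0.0021 (CTNNA1, std pair).

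Compared per kilobase of exon, which allows levels of different genes to be set side by side, CLDN7 and CDH1 were the most abundant of the 9 in pBabe-vector. CLDN7 was at 119 ± 16.3 and CDH1 at 111 ± 16.1 CPM per kb (SD, n = 3), and the libraries of these genes overlapped. JUP followed at 57.2 ± 1.45, EPCAM at 43.0 ± 2.97 and CTNNA1 at 38.9 ± 0.574 CPM per kb, each clear of its neighbor in the order. TJP1 (26.6 ± 4.38) overlapped with CTNNB1 (25.3 ± 1.60), and CTNNB1 overlapped with CTNND1 (22.2 ± 1.78 CPM per kb). OCLN, at 4.77 ± 0.719 CPM per kb, was the lowest and did not overlap with any other. In pBabe-GNA13 CDH1 (114 ± 16.0) stood above CLDN7 (103 ± 12.5 CPM per kb), with overlapping libraries, and EPCAM (55.6 ± 3.28) stood beside JUP (54.9 ± 2.48 CPM per kb). The middle of this order depends on the length used, because with the longest transcript in place of all annotated exons only 3 of 9 genes kept their rank in pBabe-vector, namely CLDN7, CDH1 and OCLN.

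CDH1, on chromosome 16 (GRCh38, 68737292 to 68835537, plus strand), encodes the classical cadherin of epithelia. It was at 694, 788 and 593 CPM in pBabe-GNA13 (std, replicates 2 and 3) and at 648, 781 and 590 CPM in the pBabe-vector libraries of the same pairs. The replicate 2 cultures of both lines were highest and the replicate 3 cultures lowest, and the groups overlapped throughout. The log2 fold change was 0.04 (SE 0.15, edgeR adjusted p = 1.0), and with the block 0.04 (95% interval −0.06 to 0.14, adjusted p = 0.642). All 3 pairs were nominally higher in pBabe-GNA13, by 0.10, 0.01 and 0.01, as 22.6% of all genes were (25.3% were lower in all pairs). The pairs themselves were further apart than the lines: the pair means of CDH1 spanned 0.41 on the log2 scale, the widest span of the 9 genes.

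The 4 catenin family genes had small differences in both directions. CTNNA1, which couples the cadherin complex to actin (chromosome 5, 138610967 to 138935034), was at 345, 329 and 331 CPM in pBabe-GNA13 and at 346, 338 and 347 CPM in pBabe-vector, so that all 6 libraries lay close together. CTNNB1, the β-catenin of both the junction and the Wnt pathway (chromosome 3, 41194741 to 41260096), was at 316, 269 and 314 CPM against 309, 276 and 309 CPM. In both lines the replicate 2 library was the lowest, where CDH1 was highest. The ratio of CTNNB1 to CDH1 counts was accordingly 0.342 and 0.354 in the replicate 2 cultures and 0.455 to 0.529 in the other 4 libraries.

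CTNND1, which binds the juxtamembrane part of the cadherin tail (chromosome 11, 57753243 to 57819546), was at 385, 343 and 333 CPM in pBabe-GNA13 and at 366, 336 and 312 CPM in pBabe-vector. Each pair was nominally higher in pBabe-GNA13, and the groups overlapped. JUP, the catenin shared with desmosomes (chromosome 17, 41754604 to 41786931, minus strand), was at 272, 283 and 259 CPM against 286, 288 and 275 CPM. Each pair was nominally lower in pBabe-GNA13, with overlapping groups. With the block the 95% intervals of the log2 difference were −0.14 to 0.07 for CTNNA1, −0.10 to 0.11 for CTNNB1, −0.04 to 0.17 for CTNND1 and −0.16 to 0.04 for JUP. Their adjusted p-values were 0.695, 0.958, 0.407 and 0.461 with the block and 0.968 to 1.0 without it.

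**Figure D1:**
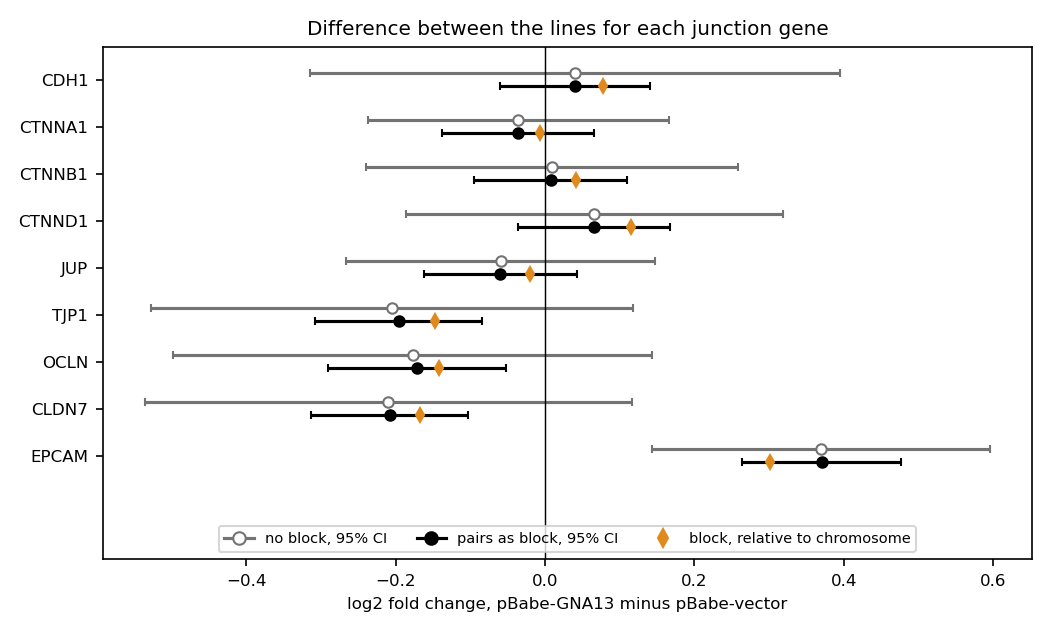
Log2 fold change of each gene, pBabe-GNA13 minus pBabe-vector (horizontal axis), with 95% intervals from edgeR without a block (open grey circles) and with the pairs as a block (black circles), and the blocked difference relative to the median of the gene's chromosome (orange diamonds, no interval drawn). With the block the intervals of TJP1, OCLN and CLDN7 lay below 0 and that of EPCAM (0.26 to 0.48) above 0.

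EPCAM, on chromosome 2 (47345158 to 47387601, plus strand), encodes a homophilic adhesion protein of epithelial cells that associates with claudin-7 in the membrane. It was at 135, 143 and 127 CPM in pBabe-GNA13 and at 101, 113 and 100.1 CPM in pBabe-vector. All 3 pBabe-GNA13 libraries stood above all 3 pBabe-vector libraries, a separation that 14.1% of all genes had in either direction. Without the block the log2 fold change was 0.37 (SE 0.10, 95% interval 0.14 to 0.60), with an unadjusted edgeR p of 0.0057 and an adjusted p of 0.321. The exact two-sided permutation test gave p = 0.10, the smallest that 3 against 3 libraries allow. The fit with the block gave an adjusted p of 5.95e-06, and EPCAM was called in each of the 8 fits that used the block. The pairs differed by 0.42 (std), 0.34 (replicate 2) and 0.35 (replicate 3).

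EPCAM lies among genes that were also higher. Of 14 genes within 1 Mb of it with a mean of at least 1 CPM, 12 had a blocked difference above 0, 4 were called higher and none was called lower. The median of these neighbors was 0.16, so that EPCAM stood 0.21 above it. TTC7A was the 1 neighbor with a larger difference (0.55). Relative to the median of chromosome 2, which was 0.07, EPCAM was still called (0.30, adjusted p = 0.000145 with the block). What the neighborhood contributes to the EPCAM difference was not tested.

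Some basal and stromal transcripts were also unequal between the libraries. KRT5, a keratin of basal prostate epithelium, was at 3.08, 0 and 3.72 CPM in pBabe-GNA13 (std, replicates 2 and 3) and at 0.57, 0 and 0.59 CPM in pBabe-vector. COL1A2, a collagen of fibroblasts, was at 2.57, 0 and 2.53 CPM against 0.05, 0 and 0.09 CPM. KRT5 and COL1A2 were at 0 in both replicate 2 libraries. COL1A2 was the only 1 of the 5 fibroblast markers called with the block. COL1A1 was at 22.0, 17.2 and 16.4 CPM against 23.1, 23.1 and 11.5 CPM (−0.01 with the block, adjusted p = 0.964). LUM had 4, 1 and 5 counts against 11, 5 and 0 counts. KRT14, also a basal keratin, was at 4.26, 4.49 and 4.39 CPM in pBabe-GNA13 and at 1.81, 2.48 and 1.81 CPM in pBabe-vector, and it rose with the block (1.12, adjusted p = 1.71e-05), the replicate 2 pair included (0.84). The 4 basal markers summed to 4.49 to 8.26 CPM in pBabe-GNA13 and 2.40 to 2.48 CPM in pBabe-vector, with TP63 at 0 in all pBabe-vector libraries and in replicate 2 of pBabe-GNA13. The 5 fibroblast markers summed to 17.3 to 24.8 CPM and 11.6 to 23.5 CPM. The part of these transcripts in the EPCAM difference was not tested. In a bulk sample a change in the share of a cell type cannot be told apart from a change in RNA per cell.

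CLDN7, the claudin that partners EPCAM, moved the other way (chromosome 17, 7259903 to 7263983, minus strand). It was at 271, 277 and 220 CPM in pBabe-GNA13 and at 296, 337 and 255 CPM in pBabe-vector. Each pBabe-GNA13 library was below its partner, yet the groups overlapped because the replicate 3 cultures of both lines were low. The log2 fold change was −0.21 (SE 0.14, adjusted p = 0.825) without the block and −0.21 (95% interval −0.31 to −0.10, adjusted p = 0.00407) with it. The call held when any 1 pair was left out and relative to the chromosome median (−0.17, adjusted p = 0.0273), and it was lost in limma-trend with the block (adjusted p = 0.0852). The 60 genes within 1 Mb had a median difference of −0.04. CLDN7 overlaps ELP5 on the opposite strand, and whether counting used strand was not given in the sources used here.

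The ratio of EPCAM to CLDN7 counts, which needs no scaling between libraries and was formed after the values had been seen, was 0.498, 0.518 and 0.578 in pBabe-GNA13 and 0.340, 0.335 and 0.392 in pBabe-vector. The groups did not overlap. Among the junction genes EPCAM had the largest rise with the block and CLDN7 the largest fall. The separation of their ratio therefore follows from this choice and is not a further result. The mean ratio was 0.531 ± 0.0417 against 0.356 ± 0.0313 (SD, n = 3).

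TJP1, the scaffold under the tight junction strands (chromosome 15, 29699367 to 29968915, minus strand), was at 287, 249 and 249 CPM in pBabe-GNA13 and at 354, 295 and 255 CPM in pBabe-vector. The std and replicate 2 pairs differed by −0.30 and −0.24, and the replicate 3 pair by −0.04, and the groups overlapped. With the block the difference was −0.20 (95% interval −0.31 to −0.08, adjusted p = 0.0106), compared with an adjusted p of 0.831 without it. TJP1 was called in 5 of the 8 fits with the block. The call was lost without the std pair (adjusted p = 0.0994), relative to the chromosome (−0.15, adjusted p = 0.0717) and in limma-trend with the block (adjusted p = 0.174). Of its 7 neighbors within 1 Mb, 6 were below 0, with a median of −0.09 and none called.

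OCLN, a membrane protein of the tight junction (chromosome 5, 69492292 to 69558104, plus strand), was at 45.4, 53.3 and 43.7 CPM in pBabe-GNA13 and at 46.0, 62.1 and 52.9 CPM in pBabe-vector. The std pair was nearly level (−0.02), the other pairs differed by −0.22 and −0.28, and the groups overlapped. The blocked difference was −0.17 (95% interval −0.29 to −0.05, adjusted p = 0.0370), and the adjusted p without the block was 0.869. It was called in 2 of the 8 fits with the block, and the call was lost without the replicate 2 pair (adjusted p = 0.172), without the replicate 3 pair (0.426) and relative to the chromosome (0.111). Of the 15 genes within 1 Mb, 2 were called higher and 1 lower, with a median of −0.05. All 15 lay above OCLN on the signed scale. The 1 called lower was TAF9, with nearly the same difference as OCLN (−0.17, adjusted p = 0.0266 with the block). An unprocessed pseudogene copy of OCLN, OCLNP1, lies on the same chromosome, and CLDN7 and CTNNA1 have the processed pseudogenes CLDN7P1 and CTNNA1P1. None of these is in the table, and whether reads were shared with them was not tested.

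CDH1 and several tight junction genes are known targets of the SNAI, ZEB and TWIST repressors, which bind E-boxes. The letters CAGGTG, read on both strands (CACCTG on the other), were searched in RefSeq promoter windows (GRCh38.p14, 250 bases before to 50 after a start). Of the 9 genes, 6 had a window in the table. A match was held by 5 of their 15 windows, beside 20.6% of all 35116 windows, and by 4 of the 6 genes, beside 24.1% of all 27305 genes with a window. The share of genes counts a match in any window, so it grows with the number of windows per gene. That number was larger for these 6 genes than over all genes. The matches of the 3 tight junction genes that fell with the block are shown in the direction of transcription, with the searched letters in capitals, since they let the windows be compared at the base level. One of the 2 CLDN7 windows held 5 matches and the other 0. Of all windows 0.0940% held 5 or more, but this window is the fullest of the 15 and was singled out after the search. TJP1 held 1 match in 1 of its 4 windows, and OCLN held 3 over 2 overlapping windows.
CLDN7 at chr17:7262637-7262662: tcttcctcctCACCTGggcaaggagg
CLDN7 at chr17:7262598-7262623: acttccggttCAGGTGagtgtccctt
CLDN7 at chr17:7262483-7262508: tacatatactCAGGTGcgccccacct
CLDN7 at chr17:7262472-7262497: aggtgcgcccCACCTGtccgcccgca
CLDN7 at chr17:7262458-7262483: tgtccgcccgCACCTGctggctcacc
TJP1 at chr15:29969122-29969147: ggccggcgcgCAGGTGgcccggcctc
OCLN at chr5:69492504-69492529: atccgagtttCAGGTGaattggtcac
OCLN at chr5:69492647-69492672: taggacgcagCAGGTGggactcgcgg
OCLN at chr5:69492815-69492839: ggtgcggcgtCAGGTGcgcccgcca

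JUP, which did not pass the test, held 2 matches in 1 of its 2 windows, and the windows of CTNNA1 (4) and CTNNB1 (1) held none. CDH1, CTNND1 and EPCAM had no window. These matches describe the letters and say nothing of binding.

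Among the genes that encode E-box repressors, ZEB1 and ZEB2 were barely detected in either line. ZEB1 had 9, 2 and 2 counts in pBabe-GNA13 and 7, 0 and 4 counts in pBabe-vector, and ZEB2 had 3, 0 and 6 counts against 1, 2 and 0 counts. SNAI1 was at 1.93, 1.41 and 3.17 CPM against 1.88, 1.86 and 2.21 CPM, and SNAI2 at 2.57, 1.38 and 3.66 CPM against 2.41, 1.24 and 3.83 CPM, with overlapping groups for both. TCF3, which encodes E-box factors that can repress CDH1, was at 118, 118 and 130 CPM against 104, 115 and 119 CPM, with overlapping groups and an adjusted p of 0.122 with the block. TWIST1 was at 21.1, 24.8 and 19.7 CPM in pBabe-GNA13 and 18.2, 19.1 and 16.9 CPM in pBabe-vector. Its groups did not overlap, and it rose with the block (0.27, adjusted p = 0.0127) but was not called without it (adjusted p = 0.655) or with the block when the replicate 2 pair was left out (adjusted p = 0.153). These genes, and the FN1, VIM, CDH2, CDH3, ZYX and KRT18 values given below, were picked after their values had been seen.

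The EMT list, which holds these repressors with mesenchymal genes, had 4 genes called higher and 1 lower of 15 with the block and none without it. Of all genes 9.32% were called higher and 10.4% lower with the block. FN1 (fibronectin) was at 376, 378 and 499 CPM in pBabe-GNA13 and at 257, 294 and 412 CPM in pBabe-vector, and it rose in all 3 pairs with the block (0.40, adjusted p = 4.36e-06), while the replicate 3 vector library reached into the pBabe-GNA13 range. VIM (vimentin) rose with the block (0.63, adjusted p = 0.0152) at no more than 4.08 CPM in any library, a call that was lost without the std pair (0.0947) or the replicate 3 pair (0.112). TCF4, a basic helix-loop-helix factor, rose by 0.51 (adjusted p = 0.0284) at 2.33 to 4.07 CPM, and was likewise lost without the std pair (0.0910) or the replicate 3 pair (0.184). ACTA2 (smooth muscle actin) fell to 2.62, 1.67 and 1.80 CPM from 5.82, 6.14 and 4.61 CPM, a blocked difference of −1.44 (adjusted p = 2.76e-07). CDH2 (N-cadherin), whose gain at the expense of E-cadherin marks EMT, had 7, 0 and 6 counts in pBabe-GNA13 and 0, 0 and 1 in pBabe-vector. It was barely detected and was not called with the block (adjusted p = 0.115) or without it (0.602).

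CDH7, a type II cadherin of the nervous system, was the only one of 139 list genes called without the block. It was at 12.6, 21.2 and 15.0 CPM in pBabe-GNA13 and at 0.88, 0.71 and 1.93 CPM in pBabe-vector (log2 fold change 3.80, adjusted p = 0.0249), and the call was lost, with an adjusted p of up to 0.169, when the std or replicate 2 library of either line was left out. Of 12 cadherins other than CDH1 in the table, 1 (CDH7) was called higher with the block and 3 lower. The shares over all genes were 9.32% and 10.4%. CDH8, also of type II, was at 0.99, 1.12 and 1.22 CPM against 2.79, 2.63 and 2.80 CPM (−1.31 with the block, adjusted p = 3.33e-05; adjusted p = 0.0997 without it). CDH3 (P-cadherin) was at 2.76, 2.64 and 1.86 CPM against 5.06, 5.26 and 2.71 CPM (−0.82 with the block, adjusted p = 0.000481). Per kilobase CDH7 reached 1.12 CPM per kb in pBabe-GNA13, compared with the 114 CPM per kb of CDH1.

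With the block 35 of the 139 list genes were called (25.2%), 23 higher and 12 lower. Of all genes 19.7% were called, as were 26.3% of genes with a mean of at least 10 CPM. Relative to chromosome medians 20 list genes were higher and 9 lower, beside 13.9% of all genes called in either direction. The adherens junction list outside the 9 genes had the most genes called lower, 5 of 17, with 2 called higher, beside 10.4% and 9.32% of all genes. Relative to chromosome medians 3 were lower and 2 higher, as ARVCF (adjusted p = 0.577) and VCL (0.122), both partners of the cadherin complex, lost their calls. SHROOM3, an actin-binding protein of apical junctions, fell to 175, 143 and 173 CPM from 208, 195 and 229 CPM (−0.36, adjusted p = 1.12e-05), and its groups did not overlap. ZYX (zyxin), an actin-binding protein of junctions under tension, fell by 0.43 on the log2 scale (adjusted p = 1.26e-06). LIMA1, an actin-bundling protein that binds the catenin complex, rose (0.36, adjusted p = 2.34e-05), but it lies on chromosome 12, whose median was 0.29, and relative to that median it was at 0.06 (adjusted p = 0.519).

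Of the 9 desmosome genes, 1 was called higher and 1 lower, beside 9.32% and 10.4% of all genes. DSC3 (desmocollin-3) fell to 35.6, 33.6 and 37.0 CPM from 44.1, 46.6 and 48.3 CPM (−0.39, adjusted p = 1.99e-05) without overlap. PKP2 (plakophilin-2), also on chromosome 12, rose by 0.60 (adjusted p = 7.42e-05) and relative to the chromosome by 0.30 (adjusted p = 0.0436). Of 9 other claudins only CLDN15, a cation-pore claudin, was called, beside 19.7% of all genes. It was higher (0.38, adjusted p = 0.0127), a call that was lost without the replicate 2 pair (adjusted p = 0.370). CLDN8, at 12.6 to 18.5 CPM, was at 0.15 (adjusted p = 0.240).

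Of 23 other tight junction and polarity genes, 5 were called higher and 1 lower, beside 9.32% and 10.4% of all genes. AMOTL1, an angiomotin family protein, rose from 2.84, 2.63 and 5.02 CPM to 5.89, 4.76 and 7.50 CPM (0.82, adjusted p = 9.00e-05). JAM3, a junctional adhesion molecule, fell to 4.71, 4.67 and 5.55 CPM from 7.39, 9.10 and 6.86 CPM (−0.64, adjusted p = 0.000635). Of 17 epithelial identity genes, 3 were called higher and 1 lower, beside the same shares of all genes. KRT8 and KRT18, the paired keratins of luminal cells, rose by 0.33 and 0.25 (adjusted p = 3.96e-05 and 0.000504), but both lie on chromosome 12 and relative to its median were at 0.03 and −0.04 (adjusted p = 0.743 and 0.684). CDS1, a lipid enzyme of epithelial cells, fell by 0.37 on the log2 scale (adjusted p = 9.06e-05).

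The remaining lists cover genes that act around the cadherin complex. Of 13 destruction complex and TCF genes, 3 were called higher and none lower with the block, beside 9.32% and 10.4% of all genes. BCL9, a β-catenin coactivator, rose by 0.30 (adjusted p = 0.000177), and LEF1, which β-catenin binds in the nucleus, rose by 0.69 (adjusted p = 0.0113) at 0.86 to 3.49 CPM. Without the replicate 2 pair the adjusted p of LEF1 was 0.0506. TCF7, also a TCF family factor, was at −0.50 (adjusted p = 0.181). Of 9 β-catenin target genes only LEF1, which is in both lists, was called, beside 19.7% of all genes. Of 8 genes of cadherin processing and turnover 1 was called, ADAM15, beside the same share of all genes. ADAM15 rose (0.19, adjusted p = 0.00640), with an adjusted p of 0.0899 without the replicate 3 pair. ADAM10, the main sheddase of E-cadherin, was at −0.11 (adjusted p = 0.193).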

How the data were processed

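Expression was measured by RNA-seq (paired-end reads of 150 nucleotides) in 3 cultures of each LNCaP line. Per the labels and the study's methods, the authors checked reads with FastQC 0.11.7, aligned them with STAR to Gencode 38 transcripts and assigned them to genes with featureCounts, and the deposited values are whole-number counts per gene symbol (the STAR version, the gene filter and strand use were not given in the sources used here). The table is named for CPM, but no value was fractional, so the counts were tested as counts. The 6 columns were mapped by their headings, and the std library of pBabe-GNA13 could be tied to its line only.

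Counts were TMM-normalized and fitted with edgeR 4.0.16 (glmQLFit and glmQLFTest, R 4.3.3) over all 17297 genes without a filter, with Benjamini-Hochberg adjustment and a threshold of 0.05. Deviations from group means correlated within pairs (r over 12778 genes, not independent of each other, 0.659 for std, 0.807 for replicate 2 and 0.888 for replicate 3) and at −0.736 to 0.125 between libraries of different pairs. Pairs come from the column headings, that of the std libraries from the tag alone, and the blocked fit is therefore given beside the unblocked one. Chromosome-centred values subtract each chromosome's median blocked difference (chromosomes with at least 20 genes, mean of at least 1 CPM). The fits were checked on simulated counts that kept the pair differences and the spread of the blocked fit, with 200 changed genes of at least 10 CPM. At changes of 1.25-, 1.5- and 2-fold the fit without the block recovered 0%, 0% and 66.5% of them. With the block 84.5%, 99% and 100% were recovered, with 17, 16 and 15 false calls.

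The 9 genes and the 11 lists (139 genes in the table) were chosen with earlier results of these data known. One list is not reported here but stays in the counts over all lists. In each list the genes named are those called without the block and the 2 with the smallest unadjusted p at a mean of at least 1 CPM. Other list genes were named after the values were seen and are marked so, except ARVCF and VCL. TTC7A and the single basal and fibroblast markers were likewise picked after the values were seen. Lengths and positions are from Gencode 44 (GRCh38), which matched 14403 symbols. Alternatives were RLE size factors, DESeq2 1.42.0, limma-trend (limma 3.58.1), filterByExpr, leaving out libraries or pairs, the chromosome-centred block and a longest-transcript length. The newer quasi-likelihood method of edgeR and 3 blocked versions (DESeq2, limma-trend, filterByExpr) were added after the data were seen. Exact permutation tests used SciPy 1.17.1, and figures matplotlib 3.10.9. A floor of 3 counts covers counting error only. The intervals of the differences come from the edgeR fits and also include the estimated spread between cultures of these lines.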

Additional observations from a re-analysis of the deposited data

How the results depend on the processing

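Genes called numbered 24 without the block and 3407 with the pairs as a block. They numbered 2 to 15 when 1 library was left out, 2250 to 3266 when 1 pair was left out of the blocked fit (3266 without std, 2550 without replicate 2, 2250 without replicate 3), 271 in DESeq2, 5 in limma-trend, 2402 with the block centred on chromosomes, 2000 in DESeq2 with the block, 433 in limma-trend with the block and 3078 with the block after filterByExpr. Of the 9 junction genes 0 were called without the block in any of these fits, whichever library was left out, and 4 with it. With the block 3 were called when any 1 pair was left out (3 to 3), 2 centred on chromosomes, 3 in DESeq2, 1 in limma-trend and 3 after filterByExpr. Of the list genes 1 was called without the block, 0 to 1 when 1 library was left out, 5 in DESeq2 and 0 in limma-trend. The block gave 35, with 25 to 33 when 1 pair was left out, 29 centred on chromosomes, 23 in DESeq2, 4 in limma-trend and 35 after filterByExpr. The direction of CDH1 (−0.063 to 0.16), CTNNB1 (−0.043 to 0.080) and TCF7 (−0.95 to 0.13) turned when single libraries were left out, that of CTNNB1 also without the std pair in the blocked fit (−0.0025), and that of KRT18 when centred on its chromosome (−0.0400). The cause was not tested. EPCAM stayed above 0 and CLDN7, TJP1 and OCLN below 0 in all 20 fits. With the longest transcript as length 3 of 9 genes kept their rank. Depth did not leave any of the 9 near its floor, as the lowest count was 1502 (OCLN).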

Other observations

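Genes were ranked by how near their pattern over the 6 libraries was to that of CDH1. Among 9866 genes with a mean of at least 10 CPM, the smallest root mean square differences from CDH1 (log2 CPM, each gene centred on its own mean) were those of STK19 (0.022), ZNF32 (0.0261), CLSTN1 (0.0317), STIM1 (0.0331) and UNC119 (0.0352). None of the other 8 junction genes was among them. CLDN7 ranked 1246, JUP 1396, OCLN 1840, CTNND1 2463, CTNNA1 2992, EPCAM 3309, TJP1 5164 and CTNNB1 5766. These likenesses rest on 6 libraries from 3 pairs and are a description.

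The spread between culture pairs differed among the 9 genes. The pair means spanned 0.41 on the log2 scale for CDH1, 0.36 for CLDN7, 0.34 for TJP1 and 0.33 for OCLN, and 0.22 for CTNND1, 0.20 for CTNNB1, 0.17 for EPCAM, 0.10 for JUP and 0.05 for CTNNA1. CDH1, JUP, OCLN, CLDN7 and EPCAM were highest in the replicate 2 pair, whereas CTNNA1, CTNNB1, CTNND1 and TJP1 were highest in the std pair.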
